A study of Oryza sativa with 24 samples.

Results

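Among 57258 rice probe sets, 17 were on in a single accession only: all 3 arrays of that accession, its home accession here, read above 300 and all 15 arrays of the other 5 accessions read under 80. A probe set is a group of short oligonucleotides on an Affymetrix array that together measure a transcript, and its intensity is given on the linear scale of the deposited table. The rule was applied to the 18 arrays of 9311, IRAT109, ZS97, Geng87-304, Youmangzaogeng and Muguanuo. It found 18 probe sets (0.0314% of those on the array), and 1 of them, annotated to the zinc finger gene OsC3H40, was left out by name. IRAT109 was the home accession of 6 members, 9311 of 5, Youmangzaogeng of 3, and ZS97, Geng87-304 and Muguanuo of 1 each. The members were chosen by these readings, so their differences between accessions are described without a test.

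The study measured shoot and leaf tissue of rice seedlings with 4 leaves, from 8 accessions, before a move to 4 °C and after 6 h and 24 h there. Each of the 3 groups (before cold, 6 h of cold, 24 h of cold) held 1 array from each accession, without replicate arrays, and the number of arrays limits the precision. The labels name each accession and do not state a transgene, a mutation or whether plants were pooled. Lixingeng and MH63, the other two accessions, were not used by the rule. Array medians lay between 41.7 and 46.6. The leaf marker CAB2R, a chlorophyll-binding protein, read at least 9795 on every array, and the chlorophyll synthesis gene PORB at least 1029. PORA, also listed for leaf, varied more, from 371 to 3207. The endosperm marker GLUA1 read at most 10.2 and the root silicon transporter gene LSI2 at most 24.9, while LSI1 and RSs1, also listed for root, had medians of 219 and 1242. Whether LSI1 and RSs1 are particular to root was not tested. The pollen marker EXPB9 read at most 68.1. Of the listed marker names, 3 of 6 for leaf, 4 of 6 for root, 1 of 2 for endosperm and 1 of 3 for pollen were measured, and their part in the results was not tested.

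A pair of arrays stood apart, those with the labels Lixingeng before cold and MH63 at 24 h. They had a Spearman correlation of 0.992 with each other across probe sets, the highest of the 276 pairs, although their labels differ in accession and in time. The next pair, MH63 before and at 6 h, had 0.981. The Lixingeng arrays at 6 h and 24 h and the MH63 arrays before cold and at 6 h are called the 4 clean arrays below, and values with the other pair are given beside.

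Rice accessions differ in which genes their genomes carry as well as in how strongly shared genes are transcribed, and 9311, ZS97 and MH63 are cultivars of the indica subspecies while IRAT109 is an upland japonica. On an array, a probe set reads high where a transcript is abundant and its sequence matches the oligonucleotides. A low reading therefore cannot tell apart a gene that is missing, a gene that is silent and a transcript whose sequence differs under the oligonucleotides. Families of nearly identical genes add to this, because a probe set whose ID ends in _x_at or _s_at can bind several transcripts.

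The members were bright where they were on. Their home means ran from 327 to 1975 with a median of 689, and on average 88.2% to 98.1% of all probe sets on the home arrays read lower. In the other 5 accessions the members' own medians had a median of 16.96. Of the 255 readings in the other accessions, 198 lay under the median of their array. With array medians of 41.7 to 46.6 and a limit of 80, this count too was partly set by the rule. On each array 10 probe sets target the rice blast fungus Magnaporthe, and 253 of the readings lay under the brightest of these. That brightest reading ran from 63.1 to 137 over the arrays, while the rule held all 255 readings under 80. The count of 253 was thus largely set by the rule and cannot show that these readings were at background. No fold between home and other accessions is given, since most of the latter readings lay under the array medians. At the edge of the rule, the lowest home readings among members were 302 (Os.52061.1.S1_at) and 323 (Os.14617.1.S1_at), and the highest readings in another accession were 79.2 (OsAffx.28771.1.S1_at) and 78.2 (Os.11837.1.S1_at). Just outside it, Os.8286.1.S1_at and OsAffx.10075.1.S1_at, with Muguanuo as home, were kept out because their lowest home readings were 292 and 263. OsAffx.6162.1.S1_s_at and OsAffx.31420.1.S1_at were kept out by a highest reading of 82.8 and 85.7 in another accession.

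**Figure D1:**
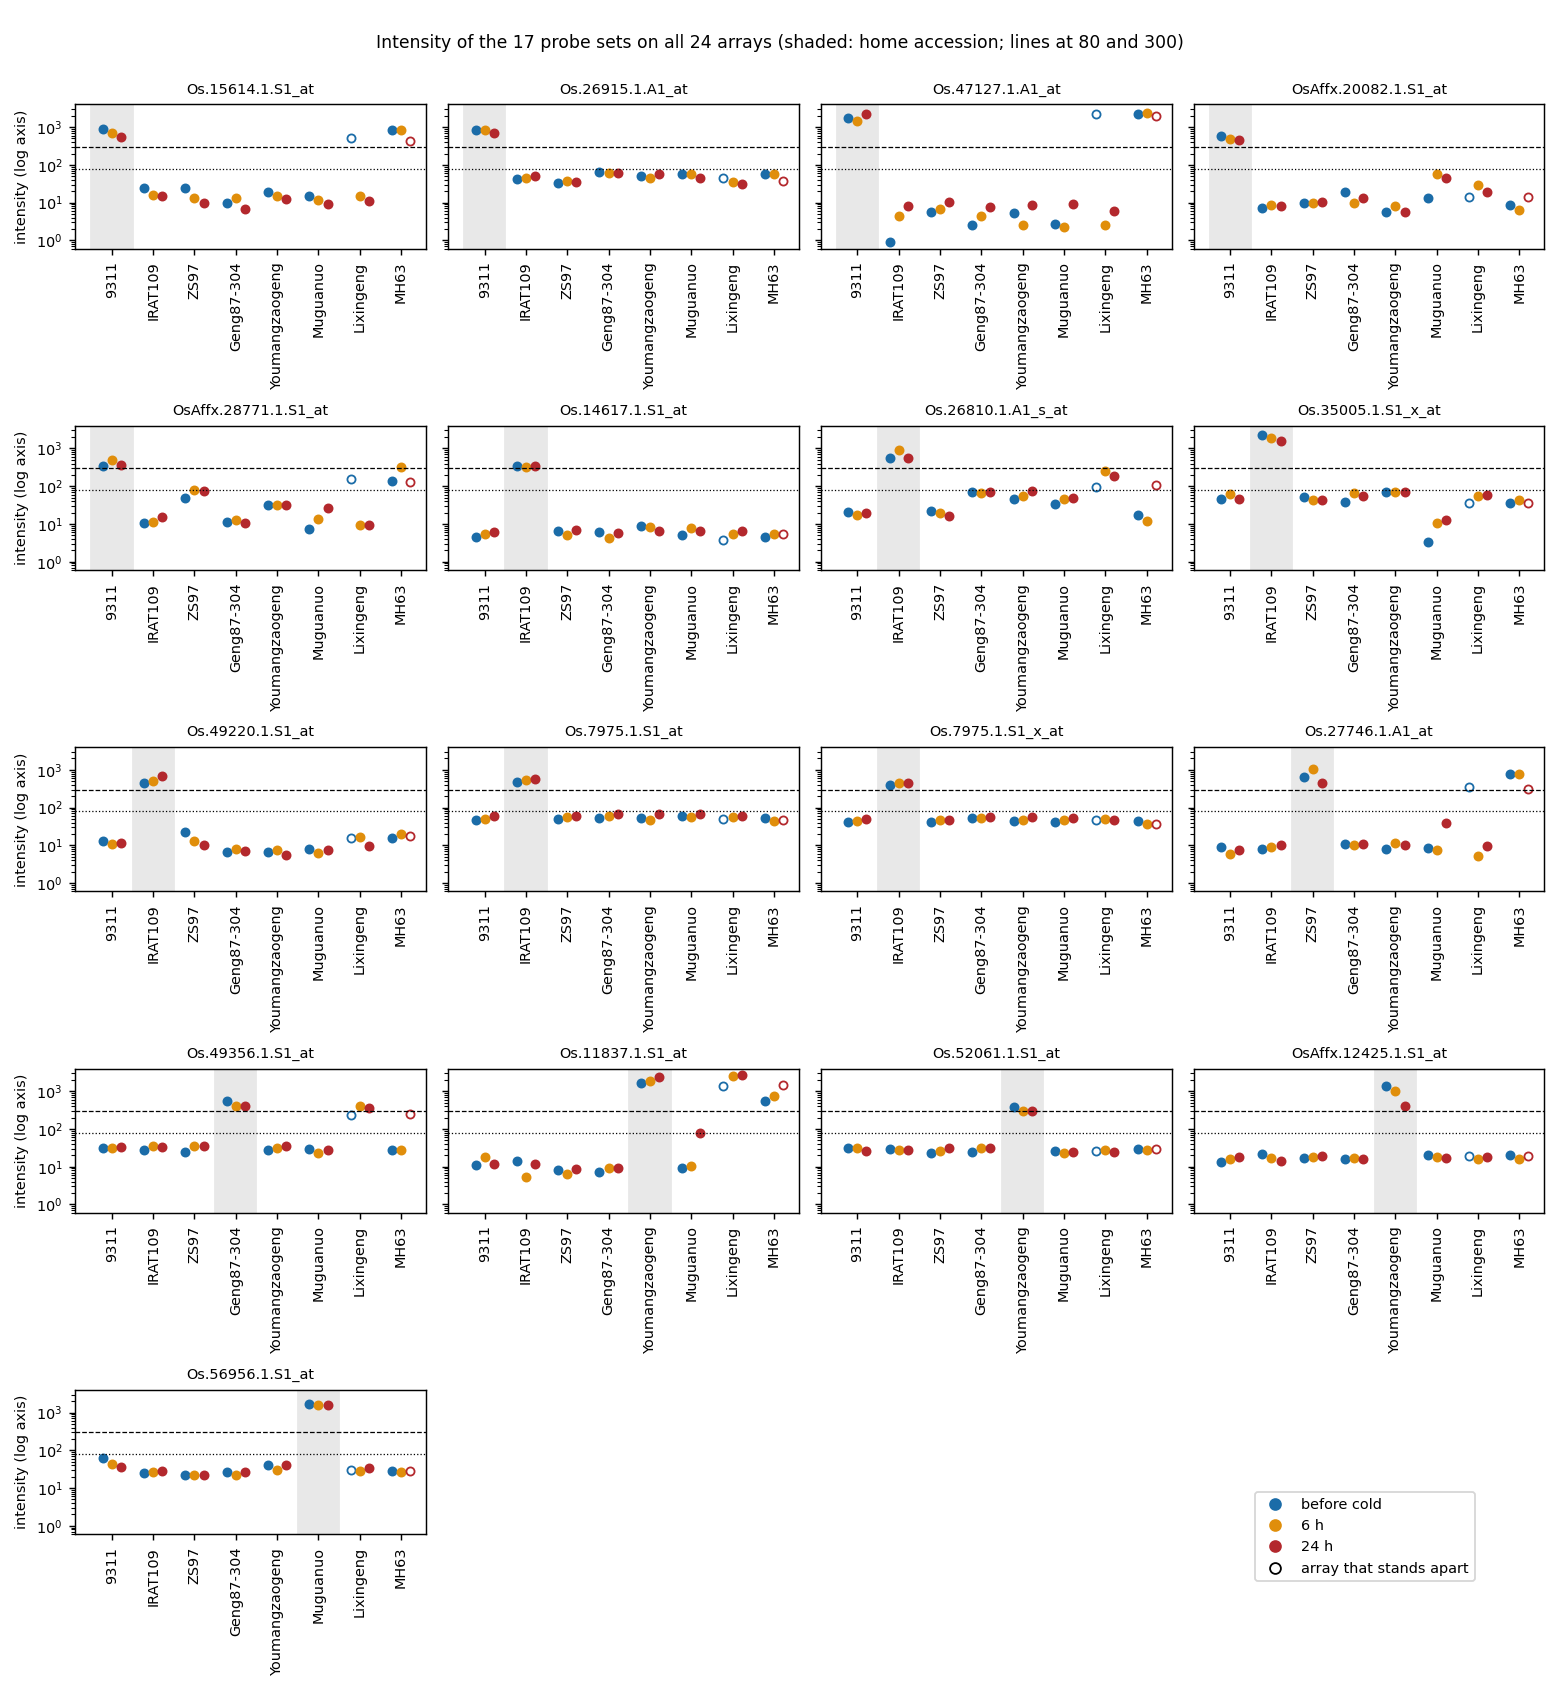
Intensity (log axis) of the 17 probe sets on all 24 arrays, by accession on the x axis and with time by colour; the home accession is shaded, the dashed line is 300, the dotted line 80, and open circles are the Lixingeng array before cold and the MH63 array at 24 h. The home readings span 302 to 2375, and Os.47127.1.A1_at, Os.11837.1.S1_at and a few others are bright again in Lixingeng or MH63.

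Few members had a named gene. The annotation tables paired 4 of the 17 with a single gene (23.5%), against 39.2% of all probe sets and 86.2% of the 4346 probe sets above 300 on all 18 arrays. The remaining 13 are given by probe set ID. Of the members, 3 (17.6%) carried the prefix OsAffx, against 44.5% of all probe sets and 5.29% of those above 300 on all 18 arrays. The suffix _x_at or _s_at stood on 3 members (17.6%), against 17.4% of all probe sets. Os.7975.1.S1_at and Os.7975.1.S1_x_at share an ID number and hence a target, so the 17 members stand for 16 ID numbers. By the mirror rule, with a single accession under 80 and the other 5 above 300, 12 probe sets were found: 5 dark in 9311, 3 in ZS97, 2 in IRAT109, 1 each in Geng87-304 and Youmangzaogeng and 0 in Muguanuo.

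IRAT109 held the member with the best-known gene. Os.35005.1.S1_x_at is annotated to LOC4325218, also known as MT2A, on chromosome 1, which encodes a metallothionein, a small cysteine-rich protein that binds metal ions. It read 2241 before cold, 1947 at 6 h and 1623 at 24 h in IRAT109 (mean 1937 ± 309, SD over the 3 times). In the other 5 accessions it read 3.35 to 72.0, with the 3 lowest readings (3.35, 10.5 and 12.8) in Muguanuo. On the 6 arrays of Lixingeng and MH63 it read 35.5 to 59.6.

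The array holds 3 more probe sets for this gene, and they had other patterns. Os.46398.1.S1_s_at was bright in IRAT109 (5616, 5529 and 5151) but also in every other accession except Muguanuo, with readings of 3249 to 7860 over 7 accessions. In Muguanuo it read 36.3 before cold, 391 at 6 h and 720 at 24 h, so each Muguanuo array lay under every array of the other accessions. The other two, Os.35005.1.S1_at and Os.46398.1.S1_at, read at most 19.2 and 18.8 on any array. The IRAT109 pattern of the metallothionein gene was thus that of 1 of its 4 probe sets, an _x_at probe set that can bind related transcripts, and a higher level of the gene in IRAT109 was not seen with the other bright probe set, which read higher in Geng87-304 (6649 to 7415) and Youmangzaogeng (7405 to 7860).

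**Figure D2:**
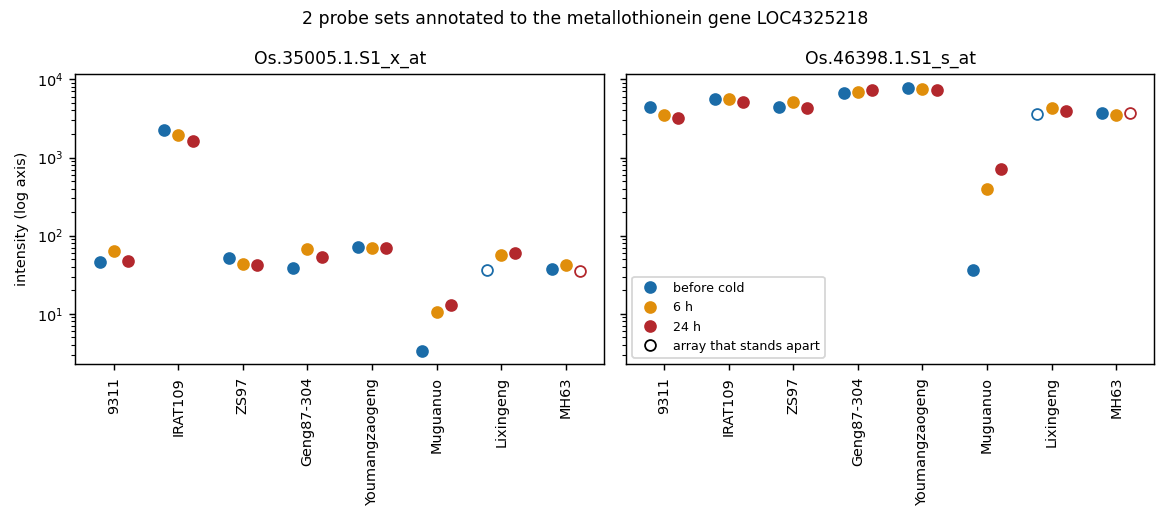
Intensity (log axis) of the member Os.35005.1.S1_x_at and of Os.46398.1.S1_s_at, both annotated to the metallothionein gene LOC4325218, in the 8 accessions (x axis) with time by colour; open circles are the 2 arrays that stand apart. The member is bright in IRAT109 only (1623 to 2241), while the other probe set is at 3249 or higher in 7 accessions and lowest in Muguanuo (36.3 to 720).

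The other IRAT109 members were dimmer. Here and below, elsewhere means the other 5 accessions that the rule used, without Lixingeng and MH63. Os.49220.1.S1_at, annotated to LOC4346665 on chromosome 9, read 448, 517 and 689 before cold, at 6 h and at 24 h, and at most 22.9 in the other 5 accessions. Os.14617.1.S1_at was the steadiest of the IRAT109 members, at 352, 323 and 340, against 4.13 to 8.68 elsewhere. The pair that shares an ID number had the same order of times: Os.7975.1.S1_at read 474, 540 and 571, and Os.7975.1.S1_x_at read 393, 443 and 454. In the other 5 accessions this pair stayed near or just above the array medians, at 46.3 to 69.1 and 41.3 to 56.5. Os.26810.1.A1_s_at read 558, 932 and 576 in IRAT109, with the highest reading at 6 h. Elsewhere it read 16.1 to 21.9 in 9311 and ZS97, 66.7 to 70.2 in Geng87-304 and 46.3 to 76.1 in Youmangzaogeng.

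In 9311, none of the 5 members was paired with a single gene in the annotation tables. Os.47127.1.A1_at read 1758, 1478 and 2188 before cold, at 6 h and at 24 h, and 0.895 to 10.3 in the other 5 accessions, under every array median. Os.26915.1.A1_at read 855, 845 and 721, against 33.1 to 66.5 elsewhere. Os.15614.1.S1_at read 874, 681 and 532, lower at each later time, against 6.67 to 24.2 elsewhere. OsAffx.20082.1.S1_at read 565, 484 and 469; elsewhere it read at most 19.0 except in Muguanuo, where it read 13.6 before cold, 58.5 at 6 h and 44.3 at 24 h. OsAffx.28771.1.S1_at read 334, 494 and 356 in 9311 and 48.9, 79.2 and 74.2 in ZS97, the highest of the other accessions.

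Youmangzaogeng, Muguanuo, ZS97 and Geng87-304 together held 6 members. Os.11837.1.S1_at had the highest home mean of all members, with 1700, 1849 and 2375 in Youmangzaogeng. It read 5.25 to 17.99 in the other 5 accessions of the rule, apart from 78.2 in Muguanuo at 24 h. In Lixingeng and MH63 it was bright, as given below. Os.52061.1.S1_at read 371, 302 and 307 in Youmangzaogeng and at most 31.9 elsewhere. OsAffx.12425.1.S1_at read 1372, 1016 and 394 in Youmangzaogeng, the largest change over time of any member, and at most 22.4 elsewhere.

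In Muguanuo, Os.56956.1.S1_at, annotated to LOC4334900 on chromosome 4, read 1660, 1543 and 1569. These 3 readings lay within 1.08-fold of each other, the narrowest home range of the 17 members, and the readings elsewhere were 22.2 to 64.5. In ZS97, Os.27746.1.A1_at read 657, 1053 and 457, and at most 39.6 elsewhere. In Geng87-304, Os.49356.1.S1_at, annotated to LOC4344825 on chromosome 8, read 544, 403 and 404, and 23.6 to 36.1 elsewhere.

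Neighbouring genes of the 4 annotated members were examined in the gene order of the RefSeq table (assembly ASM3414082v1), up to 3 genes on each side, whatever their readings. For 3 of the members such neighbours had 13 probe sets, of which 1 had all its home readings above every reading elsewhere. The share of all probe sets with such a separation was not counted, so the neighbours' readings are descriptions only. The separated probe set, Os.27362.1.S1_at of LOC4344829, was dim, with 42.0 to 52.3 in Geng87-304 against at most 41.5 elsewhere. LOC4334899, the gene next to LOC4334900, read highest in Muguanuo at each time (Os.54385.1.S1_at at 137, 221 and 303), but its readings overlapped those of the other accessions, which reached 142. For the metallothionein gene LOC4325218, the neighbours' readings in IRAT109 overlapped those elsewhere for each of their 4 probe sets. Os.523.1.S1_at of the next gene, LOC4324515, read 112 to 156 against 82.6 to 129.

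Lixingeng and MH63 gave a view of the members that the rule had not used. Of the 17 members, 4 read above 300 on both clean MH63 arrays, a level that 11.6% of all probe sets reached there, and 2 did so on both clean Lixingeng arrays (11.2% of all probe sets). One member, Os.11837.1.S1_at, was bright in both. Under 80 on all 4 clean arrays were 10 members, against 61.4% of all probe sets. The share of dark members is near that background. With 1 array per accession and time, no test of a single member was made.

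The members bright in MH63 included 2 from 9311. Os.47127.1.A1_at read 2227 before cold and 2378 at 6 h in MH63, near its 9311 mean of 1808 ± 358 (SD over the 3 times), but 2.56 at 6 h and 6.07 at 24 h in Lixingeng. Os.15614.1.S1_at read 843 and 843 in MH63 against 14.9 and 10.8 in Lixingeng. Os.27746.1.A1_at, the ZS97 member, read 773 and 776 in MH63, or 107% of its ZS97 mean, and 5.20 and 9.53 in Lixingeng. These 3 members, all with an indica home accession, were thus bright in MH63, also an indica cultivar, and dark in Lixingeng. By the rule each was dark in the other of 9311 and ZS97. In ZS97, Os.47127.1.A1_at read at most 10.3 and Os.15614.1.S1_at at most 23.9, and Os.27746.1.A1_at read at most 9.27 in 9311. The remaining member bright in MH63, Os.11837.1.S1_at, has Youmangzaogeng as home and was brighter in Lixingeng. A link to the subspecies was not tested. Another 9311 member, OsAffx.28771.1.S1_at, was between the limits in MH63, at 138 before cold and 321 at 6 h. The other 9311 members, Os.26915.1.A1_at and OsAffx.20082.1.S1_at, read at most 57.3 on all 4 clean arrays.

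In Lixingeng, Os.49356.1.S1_at (LOC4344825) read 414 at 6 h and 353 at 24 h, or 85.2% of its Geng87-304 mean, and 28.2 and 27.5 on the clean MH63 arrays. Os.11837.1.S1_at read 2539 and 2677 in Lixingeng, or 132% of its Youmangzaogeng mean, and 536 and 759 in MH63, or 32.8%. Of the 6 IRAT109 members, 0 were above 300 in either accession and 5 were under 80 on all 4 clean arrays. The exception, Os.26810.1.A1_s_at, read 255 and 185 in Lixingeng and 17.7 and 12.3 in MH63. The Muguanuo member Os.56956.1.S1_at (LOC4334900) read 26.0 to 33.3 on these arrays. A single home accession among all 8 was therefore the pattern of 10 members on the clean arrays. They were 5 from IRAT109, among them the pair that shares an ID number, 2 each from 9311 and Youmangzaogeng, and the Muguanuo member.

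On the 2 arrays that stand apart, members bright in just 1 of Lixingeng and MH63 read high on both. Os.15614.1.S1_at read 508 on the array labelled Lixingeng before cold and 422 on that labelled MH63 at 24 h. Os.47127.1.A1_at read 2188 and 1989 on the same arrays, and Os.27746.1.A1_at read 341 and 303. Os.49356.1.S1_at, dark in MH63 before cold and at 6 h, read 240 and 256, under the limit of 300. Os.11837.1.S1_at read 1336 and 1431, OsAffx.28771.1.S1_at 152 and 128, and Os.26810.1.A1_s_at 93.3 and 108. With these arrays counted, so that all 3 arrays of an accession had to read above 300, 4 members were bright in MH63 and 1 in Lixingeng.

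**Figure D3:**
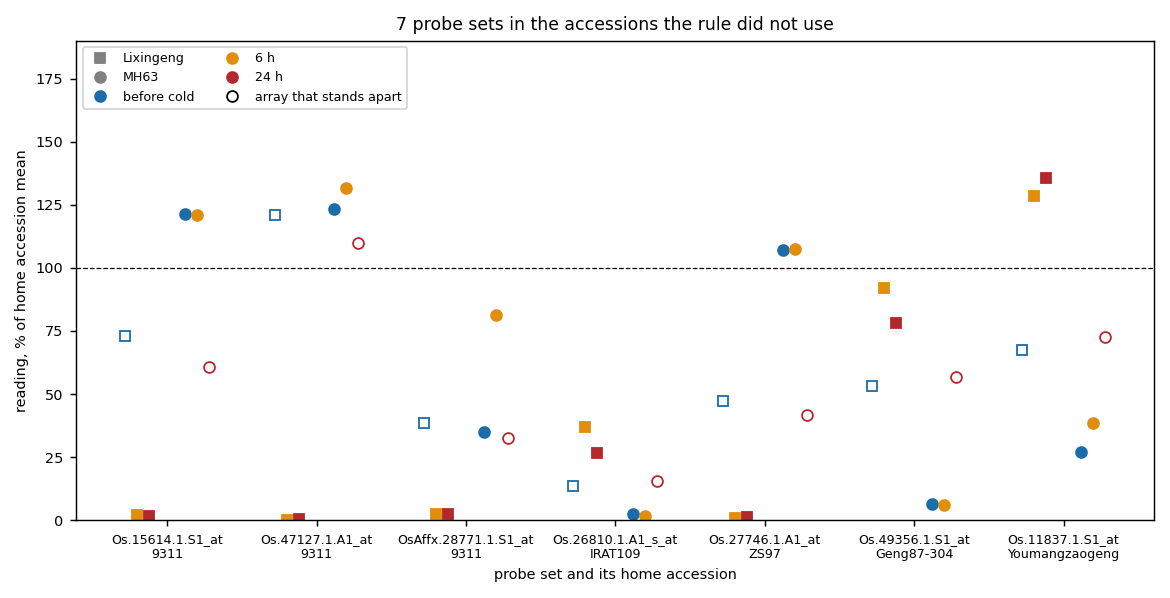
Readings of the 7 members above 80 on a clean Lixingeng or MH63 array, as a percentage of the home accession's mean (y axis), by probe set with its home accession (x axis); squares are Lixingeng, circles MH63, colours give the time, and open symbols are the 2 arrays that stand apart. On the open symbols both accessions read alike, while the filled ones separate Lixingeng from MH63, as for Os.27746.1.A1_at at 107% in MH63.

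Where they were on, few members differed 2-fold in the cold, and the counts were too small to set apart from those of other bright probe sets. The rule itself limited falls, since all 3 home readings had to be above 300. A probe set not far above 300 before cold could not fall 2-fold and stay a member. Without the 24 h arrays the rule found 32 probe sets. Whether the added ones were too low at home or too high elsewhere at 24 h was not counted. The bright probe sets set beside the members had the same limit of 300. The change within the home accession was taken on the scale log2(value + 32), which understates the change of dim probe sets, and rests on 1 array per time, so that it has no test or error. At 6 h, 0 of 17 members differed 2-fold from before, where 1.88% of all probe sets above 300 on the 3 arrays of the same accession had done so over the 6 accessions (1.53% to 2.38% by accession). At 24 h 1 of 17 differed 2-fold from before, with 8.75% over all such probe sets (6.27% to 10.1% by accession). From 6 h to 24 h the count was 2 of 17, with 3.31% over all (1.54% to 4.46% by accession). The median log2 change of the members was -0.10 at 6 h and -0.08 at 24 h, against -0.02 and -0.05 over all such probe sets.

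OsAffx.12425.1.S1_at was the member lower by 2-fold at 24 h in Youmangzaogeng, with a log2 change of -0.42 at 6 h and -1.72 at 24 h, so that 28.7% of the reading before cold remained. In Youmangzaogeng 10.1% of bright probe sets differed 2-fold at 24 h. Os.27746.1.A1_at had log2 changes of 0.66 at 6 h and -0.49 at 24 h in ZS97, a difference of -1.15 between the cold times. On the clean MH63 arrays, where it was also bright, its change at 6 h was 0.01. Os.26810.1.A1_s_at had the highest change at 6 h, 0.71 in IRAT109, and was back at 0.04 at 24 h. OsAffx.28771.1.S1_at had 0.53 at 6 h in 9311 and 1.05 in MH63, and 0.08 at 24 h in 9311. Os.49220.1.S1_at (LOC4346665) had the highest change at 24 h, 0.59 in IRAT109. For Os.15614.1.S1_at the log2 change in 9311 was -0.35 at 6 h and -0.68 at 24 h, and in MH63 at 6 h it was -0.002. For Os.11837.1.S1_at the change was 0.12 at 6 h and 0.48 at 24 h in Youmangzaogeng, and 0.48 at 6 h in MH63. Os.49356.1.S1_at (LOC4344825) was lower at both cold times in Geng87-304, by log2 changes of -0.41 and -0.40, while the Muguanuo member Os.56956.1.S1_at (LOC4334900) had -0.10 and -0.08. For Os.47127.1.A1_at the change in 9311 was -0.25 at 6 h and 0.31 at 24 h. The metallothionein member Os.35005.1.S1_x_at (LOC4325218) had -0.20 and -0.46 in IRAT109.

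**Figure D4:**
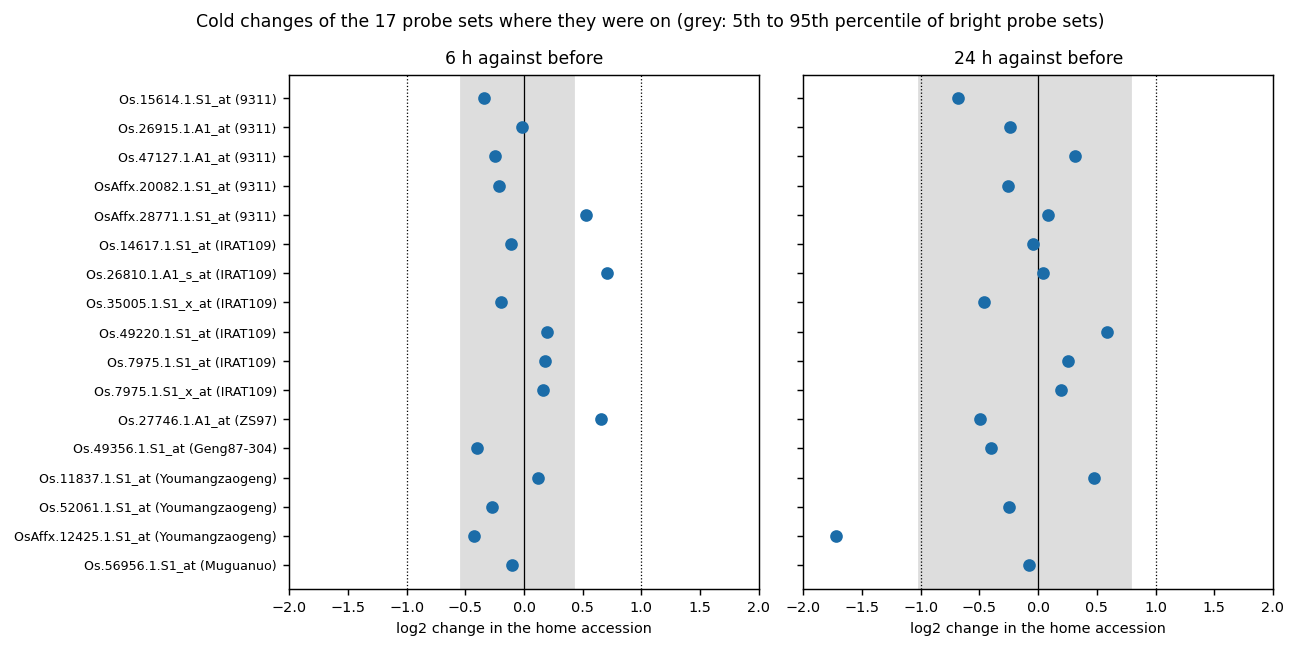
Log2 change of each of the 17 members in its home accession (x axis, on log2(value + 32)) at 6 h and at 24 h against before; the grey band runs from the 5th to the 95th percentile of all probe sets above 300 on the 3 arrays of an accession, and dotted lines mark 2-fold. At 6 h 14 of 17 members lie in the band and at 24 h 16 of 17, with OsAffx.12425.1.S1_at at -1.72 outside it.

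In a limma fit over the 18 arrays, with time and accession as terms, the mean change of the 6 accessions was tested, most of whose readings are dim for a member. At 6 h 0 of 17 members passed at an adjusted p under 0.05 (2 at an unadjusted p under 0.05), where 11.6% of all probe sets passed. At 24 h 4 of 17 passed, where 34.9% of all probe sets passed. For all 4 the test rests mostly on readings that the rule required to be off, 5 accessions of 6, and it is no evidence of a change where the member was on. Os.15614.1.S1_at had a fitted log2 change of -0.31 ± 0.06 (SE, adjusted p = 0.001 by limma) and was lower in 6 of 6 accessions. But in the other 5 accessions of the fit it read 6.67 to 24.2, under every array median. Os.47127.1.A1_at had 0.22 ± 0.05 (adjusted p = 0.00254 by limma) and was higher in 6 of 6, but in the other 5 it read at most 10.3. The pair Os.7975.1.S1_at and Os.7975.1.S1_x_at, which read close to the array medians outside IRAT109, had 0.20 ± 0.04 and 0.15 ± 0.04 (adjusted p = 0.00194 and 0.00544 by limma), each higher in 6 of 6. For this pair the change in IRAT109, where it was on, was 0.25 and 0.20, and the median change of the other 5 accessions was 0.21 and 0.15. With all 24 arrays, the 2 arrays that stand apart included, Os.15614.1.S1_at and Os.47127.1.A1_at no longer passed (log2 changes of -0.81 and -0.59), so the second also changed sign, while Os.11837.1.S1_at passed (0.54, adjusted p = 0.0153 by limma), which left 3 members. With no accession block 0 of the 17 passed.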

How the data were processed

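The deposited table held 1 column of probe set intensity per array on a linear scale (24 arrays, 57381 rows, of which 123 control rows were left out). Per the labels, these are Affymetrix arrays; how the authors summarised and scaled the values is not given in the sources used here. Accession and time came from the labels. Members were found by the rule on the deposited values, without further normalization. The members and lists were chosen with earlier results of these data known.

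Changes used log2(value + 32). The cold fit used limma 3.58.1 (R 4.3.3; lmFit, eBayes with trend) on 18 arrays with accession as a block, since the labels give each accession all 3 times, and Benjamini-Hochberg adjustment over 57258 probe sets. Deviations from the time means correlated at 0.703 to 0.886 over the 18 pairs of arrays of an accession. The fit was tested on data simulated as normal noise around accession means, with 200 probe sets moved by a log2 of 1 at 24 h. Such data follow the fitted model, so they cannot show how the fit does for probe sets on in a single accession. The labels do not say that arrays came from separate plantings, so p-values measure only the spread between these samples. Probe sets were named through the platform's annotation (22436 with a single gene) and a RefSeq gene table, matched by gene ID. The rule for named genes took, per home accession, the brightest members, those with the largest changes past 2-fold and those with a named gene or a further probe set, and over all accessions those brightest in the held-out accessions and nearest the thresholds. Members outside it are named too, since all 17 are accounted for. Families could not be counted by gene description, since the tables used here hold none, and no sequence is printed. Alternatives were other thresholds, offsets, folds, normalizations, filters and sets of arrays. Python 3.11.15 with pandas 2.3.3 and matplotlib 3.10.9 was used for tables and plots.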

Additional observations from a re-analysis of the deposited data

Results flagged for a closer look

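For each member and time, the readings of the 5 accessions other than its home were examined for a single array far from the rest, by Dixon's test on log2(value + 32). Of 51 such groups 5 had one. Chance flags about 5 in 100 groups of freely varying values, but the rule capped these readings at 80 and the same accessions recur over times, so that rate does not carry over and the 5 are descriptions. All 5 were high readings, and 4 of them were in Muguanuo. OsAffx.20082.1.S1_at read 58.5 in Muguanuo at 6 h and 44.3 at 24 h, with the nearest other accession at 9.62 and 13.5. Os.11837.1.S1_at read 78.2 in Muguanuo at 24 h, with the nearest at 12.1, and Os.27746.1.A1_at read 39.6 on the same array, with the nearest at 10.7. Os.7975.1.S1_x_at read 53.8 in Geng87-304 before cold, with the nearest at 43.4.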

How the results depend on the processing

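The number of members depended on the thresholds: 43 with readings above 200 and under 100, among them all 17, and 6 with readings above 400 and under 60. Leaving out the arrays of 1 time gave 19 to 32, the highest without the 24 h arrays. With quantile normalization 16 were found, of which 15 were members, and with equal medians 17, of which 16 were members. Os.11837.1.S1_at was lost under both (highest other reading 85.9 and 84.0) and Os.52061.1.S1_at under the first. Bright members in Lixingeng numbered 1 with a limit of 400, and 1 with the array that stands apart. Changed members in the home accession numbered 2 at 6 h and 3 at 24 h with a limit of 1.5-fold. The 24 h count was 0 among members of the stricter rule, and from 6 h to 24 h it was 0 with a limit of 3-fold and 1 among those members. In the cold fit without the accession as a replicate block, 1809 probe sets passed at 6 h and 9562 at 24 h, against 6619 and 19955 with it, and 0 members passed at 24 h. With all 24 arrays 3 members passed at 24 h: 2 were lost (Os.15614.1.S1_at, Os.47127.1.A1_at) and Os.11837.1.S1_at was gained. With 22 arrays 1 member passed at 6 h (OsAffx.28771.1.S1_at, log2 change 0.33). Among probe sets above 100 on at least 3 arrays 12421 passed at 24 h, where fewer were tested. Without each accession in turn, 4740 to 5839 probe sets and 0 to 1 members passed at 6 h, and 17560 to 19413 and 4 to 5 at 24 h. Os.15614.1.S1_at passed at 6 h without Geng87-304 (-0.22), and OsAffx.28771.1.S1_at at 24 h without 9311 (0.22). The cause of these shifts was not tested.

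With quantile normalization the probe sets that passed were 2774 higher and 3710 lower at 6 h, against 1916 and 4703 as deposited. Signal over background limits the readings outside the home accession, most of which lie under the array medians.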
